A study of Mus musculus with 7 samples.

Results

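The genes described here are 10 transcription factors of the epithelial-mesenchymal transition (EMT), namely Snai1, Snai2, Twist1, Twist2, Zeb1, Zeb2, Foxc2, Prrx1, Tcf4 and Klf4, out of 54532 genes in the count table. Their symbols were mapped to Ensembl mouse identifiers through GENCODE release M21 (GRCm38, the mm10 build). All 10 were found once each, and all 10 were among the 13784 genes with enough counts to be tested.

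RNA sequencing covered 7 libraries of PanMeso cells, mesothelial cells taken from mouse pancreas that express enhanced green fluorescent protein (eGFP). The labels give 1 culture protocol for all 7 libraries: growth at 33 °C in a medium with 10% FBS (serum), antibiotics, 870 nM insulin, 400 nM hydrocortisone, 3.3 nM epidermal growth factor and 20 mM HEPES, then 37 °C for 3 days before experiments. The Parental group (n = 3) is these cultured cells. The In Vivo_BMFA3 (n = 2) and In Vivo_CT1BA5 (n = 2) groups were the same eGFP-positive cells after orthotopic injection together with the pancreatic cancer cells BMFA3 or CT1BA5, recovered from the tumours by fluorescence-activated sorting on eGFP. The host mice have no strain, sex or age in the labels, and whether the libraries of a group come from different cultures or tumours is not said there, so p-values measure the spread between libraries, which may be technical. The sorted groups differ from the parental group at least in the host tissue, the tumour cells and the sorting step together, and these cannot be told apart. As the labels give the same culture fields for sorted libraries, they do not show whether medium or time in culture also differed.

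Transcription factors of the EMT are proteins that lower cell-cell adhesion genes and raise matrix and motility genes when epithelial cells become migratory. SNAI and ZEB proteins are zinc finger repressors that bind the E-box letters CACCTG, TWIST proteins are basic helix-loop-helix factors that pair with E proteins such as the product of Tcf4, FOXC2 is a forkhead factor and PRRX1 a homeodomain factor. KLF4 is a zinc finger factor that maintains epithelial genes and is commonly placed opposite SNAI proteins. Mesothelial cells already mix epithelial features (keratins, junctions) with mesenchymal ones (vimentin, N-cadherin), and the change of such cells to fibroblast-like cells is called the mesothelial-mesenchymal transition.

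Library totals were 10096839 to 19210598 counts, and libraries of a group correlated across genes at 0.989 to 0.993 (log2 CPM, where CPM are counts scaled to a common sequencing depth). The mesothelial markers Msln, Upk3b, Upk1b and Gpm6a were abundant in parental cells (5093, 2980, 1735 and 631 CPM), and of 11 tested mesothelial markers 10 fell and 1 rose in tumour-sorted cells. The summed level of the 12 mesothelial markers was 10940 to 12000 CPM in the parental libraries, 2566 to 2573 with BMFA3 and 1613 to 1663 with CT1BA5. Calb2, another mesothelial marker, had at most 1 count in a library. Among 15 leukocyte and macrophage markers, 7 (Ptprc, Itgam, C1qa, C1qb, C1qc, Tyrobp and Cd3e) stood at 0 counts throughout the 7 libraries; 3 counts, the limit that a count of 0 allows, equal at most 0.276 CPM in any of them. Of the 4 that were tested 3 rose, and the summed level of that list was 12.5 to 15.9, 23.3 to 25.8 and 28.2 to 28.3 CPM in the same order of groups. Of 7 tested pericyte and stellate cell markers 5 rose and 1 fell, and the sum of all 10 was 111 to 121, 189 to 195 and 272 to 306 CPM. The sum of 10 endothelial markers (1 of 3 tested rose, 2 fell) was 168 to 184, 70.1 to 72.2 and 53.4 to 56.5 CPM, and that of 12 tumour epithelium markers (1 of 5 tested rose, 2 fell) was 68.5 to 88.6, 38.7 to 44.8 and 25.7 to 26.3 CPM. This last sum includes Krt7 and Cdh1, which parental cells express (59.5 and 11.6 CPM) and which fell. Its marker that rose in the mean of the sorted groups was Spint1, at 9.41, 25.1 and 12.4 CPM in the same order of groups. In each sorted group against parental cells 2 of the 5 tested rose and 2 fell (59.0% of all tested genes called in BMFA3, 70.7% in CT1BA5). Beside Spint1, Muc1 rose in BMFA3 cells (0.438, 1.36 and 0.337 CPM, at most 24 counts in a library). Cldn4 rose in CT1BA5 cells (0.049, 0.0305 and 0.920 CPM, at most 14 counts). Over all tested genes 69.6% rose or fell by the test in tumour-sorted against parental cells, which stands beside the marker counts of that comparison. The part of the marker lists in the results below was not tested.

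Of the 10 factors, 7 rose, 2 fell and 1 missed the threshold in tumour-sorted against parental cells, as the mean of both sorted groups. Over all tested genes 69.6% were called in that comparison (34.8% higher and 34.8% lower), so a call on its own says little, and sizes and levels carry the description. The median log2 fold change of the 10 was 0.86, beside 0.006 over all tested genes. The 4 sorted libraries all lay above the 3 parental libraries for 6 factors and below them for 2, and over all tested genes 55.9% showed no overlap. In bulk RNA a change in the share of cells that express a gene and a change in RNA per cell cannot be told apart.

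**Figure D1:**
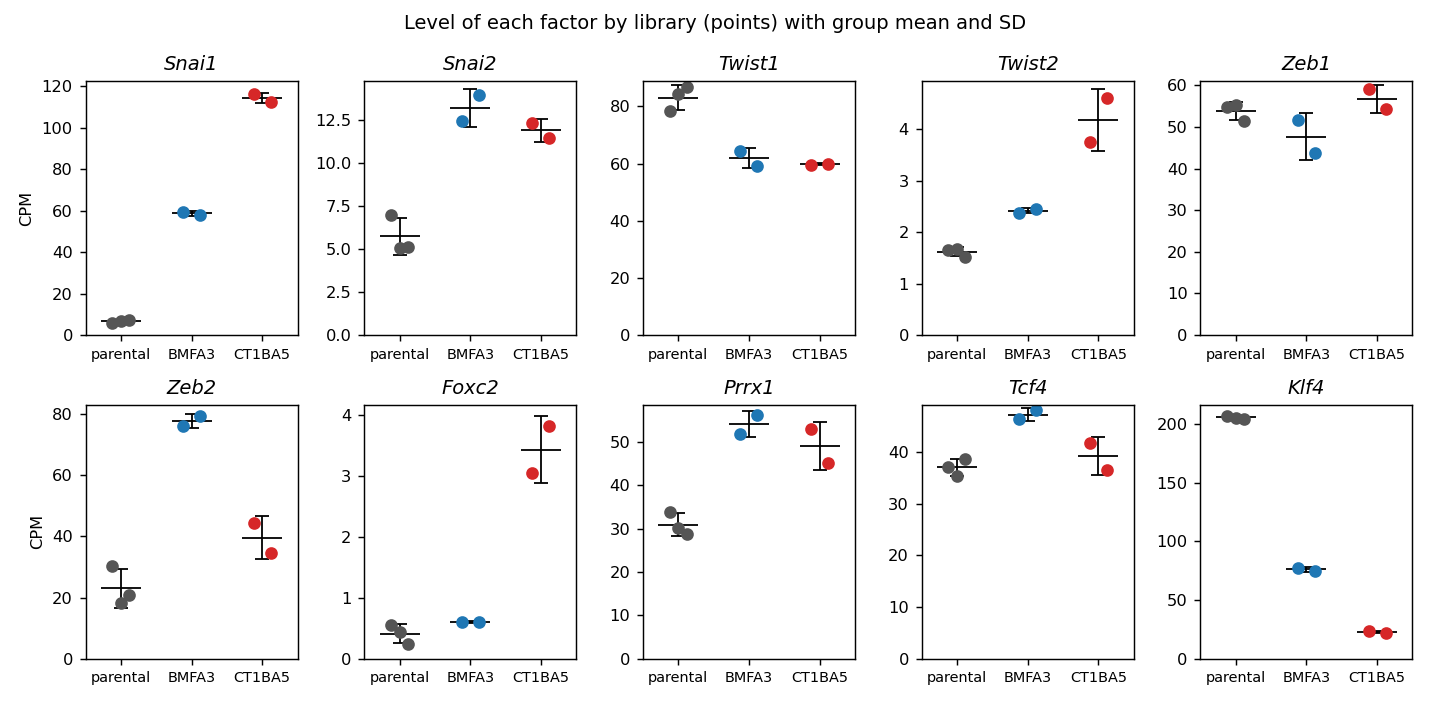
CPM of each of the 10 factors (vertical axes, each from 0) in the 3 parental, 2 BMFA3 and 2 CT1BA5 libraries (points), with the group mean (bar) and SD (whiskers). Snai1 rises from about 6.59 to 58.8 and 114 CPM while Klf4 falls from about 206 to 76.2 and 22.9 CPM, and Zeb1 and Tcf4 stay within a narrow range.

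Snai1, a direct repressor of E-cadherin, had the largest rise of the 10 in both sorted groups. It is on chromosome 2 at 167538195 to 167542814 (forward strand, ENSMUSG00000042821). Parental libraries held 5.61, 6.99 and 7.16 CPM (61, 96 and 146 counts), BMFA3 libraries 59.5 and 58.0 CPM, and CT1BA5 libraries 116 and 113 CPM. Each group was clear of the others, with every CT1BA5 library above every BMFA3 library and every BMFA3 library above every parental one. The fold was 8.76 (95% interval 7.62 to 10.1) in BMFA3 and 17.1 (14.9 to 19.5) in CT1BA5 cells against parental cells (log2 3.13 ± 0.096 and 4.09 ± 0.093 SE, adjusted p = 8.29e-16 and 2.75e-18, edgeR quasi-likelihood test with Benjamini-Hochberg adjustment over all genes). In the mean of the sorted groups its log2 fold change was the 223rd highest of 13784 tested genes.

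The RefSeq promoter window of Snai1 (GRCm38.p6, chr2:167537945-167538244, forward strand, 250 bases before to 50 after the start site) is shown because it belongs to the factor with the largest rise and holds the letters that SNAI and ZEB proteins bind. Capitals mark CACCTG, which starts at base -126 from the start site. Such letters in a window are a description and not evidence of binding.
Snai1: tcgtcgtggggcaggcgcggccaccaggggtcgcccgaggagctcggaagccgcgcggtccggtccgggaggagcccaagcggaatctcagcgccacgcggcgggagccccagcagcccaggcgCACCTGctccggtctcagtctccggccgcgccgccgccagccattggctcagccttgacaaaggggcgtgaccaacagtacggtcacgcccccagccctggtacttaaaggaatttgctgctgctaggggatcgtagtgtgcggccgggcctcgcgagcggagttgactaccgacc

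Snai2 (Slug), its paralogue and a factor of neural crest and wound-edge cells, lies on chromosome 16 at 14705852 to 14709385 (forward strand, ENSMUSG00000022676). It stood at 6.99, 5.09 and 5.15 CPM in parental libraries, 12.4 and 14.0 CPM in BMFA3 libraries and 12.4 and 11.4 CPM in CT1BA5 libraries. Both sorted groups were above the parental group and near each other. Snai2 rose 2.33-fold (95% interval 1.83 to 2.97, adjusted p = 3.07e-06) in BMFA3 and 2.11-fold (1.65 to 2.70, adjusted p = 1.31e-05) in CT1BA5 cells. Between the sorted groups the log2 difference of CT1BA5 over BMFA3 was -0.15, with a 95% interval of -0.50 to 0.21.

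The relation of the paralogues changed with it. Per kilobase of exon, Snai1 over Snai2 was 1.00 to 1.73 in the parental libraries, 5.17 to 5.97 with BMFA3 and 11.7 to 12.3 with CT1BA5. The levels were near-equal in parental replicate 1, and Snai1 was the higher in the other parental libraries (1.71 and 1.73) and, by more, in every sorted library.

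Zeb2 and Zeb1, zinc finger and homeodomain repressors that share E-box targets, did not move together. Zeb2 (chromosome 2, 44983632 to 45117395, reverse strand, ENSMUSG00000026872) stood at 30.2, 18.2 and 20.8 CPM in parental libraries, 76.1 and 79.2 in BMFA3 and 44.4 and 34.6 in CT1BA5 libraries. It was highest in BMFA3 cells, lowest in parental cells and between them in CT1BA5 cells, with no overlap of groups, although parental replicate 1 stood above the other parental libraries. The rise was 3.43-fold (95% interval 2.81 to 4.17, adjusted p = 8.87e-10) in BMFA3 and 1.75-fold (1.42 to 2.16, adjusted p = 5.25e-05) in CT1BA5 cells.

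Macrophages also express Zeb2. Their markers Ptprc, Itgam, C1qa, C1qb, C1qc and Tyrobp had 0 counts in every library. Csf1r averaged 3.37, 8.29 and 5.57 CPM and Fcgr3 0.286, 2.80 and 8.37 CPM in the order parental, BMFA3, CT1BA5. Lists of 3 group means keep that order from here on. Cd68 stood at 10.1, 12.45 and 12.8 CPM and Fcer1g, with at most 13 counts in a library, at 0.110, 0 and 0.888 CPM. All 4 tested leukocyte and macrophage markers were higher in CT1BA5 against parental cells (70.7% of all tested genes called). In BMFA3 against parental cells 2 were higher and 2 did not pass the test (59.0% called). The part of such cells in the Zeb2 result was not tested. Csf1r overlaps Hmgxb3 on the opposite strand, so its value is uncertain. Zeb2os, an antisense gene that shares 653 exonic bases with Zeb2 and was named after its values were seen, had 1 to 2 counts in parental, 16 and 17 in BMFA3 and 13 and 14 in CT1BA5 libraries. As counting by strand is not stated, reads of Zeb2 and Zeb2os in those bases cannot be told apart.

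Zeb1 (chromosome 18, 5591860 to 5775467, forward strand, ENSMUSG00000024238) stood at 54.85, 55.3 and 51.4 CPM in parental, 51.6 and 43.7 in BMFA3 and 59.1 and 54.4 in CT1BA5 libraries. The sorted groups overlapped the parental group. Its log2 fold change against parental cells was -0.17 (95% interval -0.35 to 0.01) in BMFA3 and 0.08 (-0.10 to 0.26) in CT1BA5 cells, neither past the threshold (adjusted p = 0.0884 and 0.405, edgeR). The intervals exclude a change of 2-fold in either direction. Without BMFA3 replicate 1 the BMFA3 value was -0.29 and passed the test (adjusted p = 0.0304), as it did with library size alone (-0.25, adjusted p = 0.0157). Gm10125, which shares 198 exonic bases with Zeb1 on the opposite strand, had at most 14 counts in a library. Per kilobase of exon, Zeb2 over Zeb1 was 0.169 to 0.283 in the parental libraries, 0.759 to 0.932 with BMFA3 and 0.328 to 0.387 with CT1BA5. The size of this ratio rests on the exon lengths used (19942 and 10266 bases), whereas its order over groups does not.

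Twist1, a helix-loop-helix factor of mesenchyme, had the highest level per kilobase of exon after Klf4 in parental cells and was lower in sorted cells. The gene is on chromosome 12 at 33957671 to 33959829 (forward strand, ENSMUSG00000035799). Its values were 78.2, 84.4 and 86.6 CPM in parental, 64.3 and 59.3 in BMFA3 and 59.6 and 60.0 in CT1BA5 libraries. All sorted libraries were below all parental ones, and the sorted groups overlapped. The log2 fold change was -0.43 ± 0.072 (SE, adjusted p = 3.7e-05) in BMFA3 and -0.48 ± 0.073 (adjusted p = 7.86e-06) in CT1BA5 cells, and the difference of CT1BA5 over BMFA3 was -0.05, with a 95% interval of -0.21 to 0.12.

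Twist2 (Dermo1), the dermal and skeletal paralogue, was scarce, and highest in CT1BA5 cells. On chromosome 1 at 91801461 to 91848028 (forward strand, ENSMUSG00000007805), it had 18, 23 and 31 counts (1.66, 1.67 and 1.52 CPM) in parental, 39 and 37 counts (2.38 and 2.45 CPM) in BMFA3 and 58 and 59 counts (3.75 and 4.59 CPM) in CT1BA5 libraries. Groups were ordered parental, BMFA3, CT1BA5 without overlap. The rise passed the test in CT1BA5 (2.58-fold, 95% interval 1.73 to 3.85, adjusted p = 0.000203) and not in BMFA3 cells (log2 0.58, interval -0.03 to 1.20, adjusted p = 0.0962). Gm29100, an antisense gene that shares 1477 exonic bases with Twist2, reached 10 counts in 1 library and fewer in the rest, and its reads and those of Twist2 cannot be told apart there. Per kilobase of exon, Twist1 exceeded Twist2 by 92.1 to 111 times in the parental libraries, 47.2 to 52.7 with BMFA3 and 25.4 to 31.0 with CT1BA5.

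**Figure D2:**
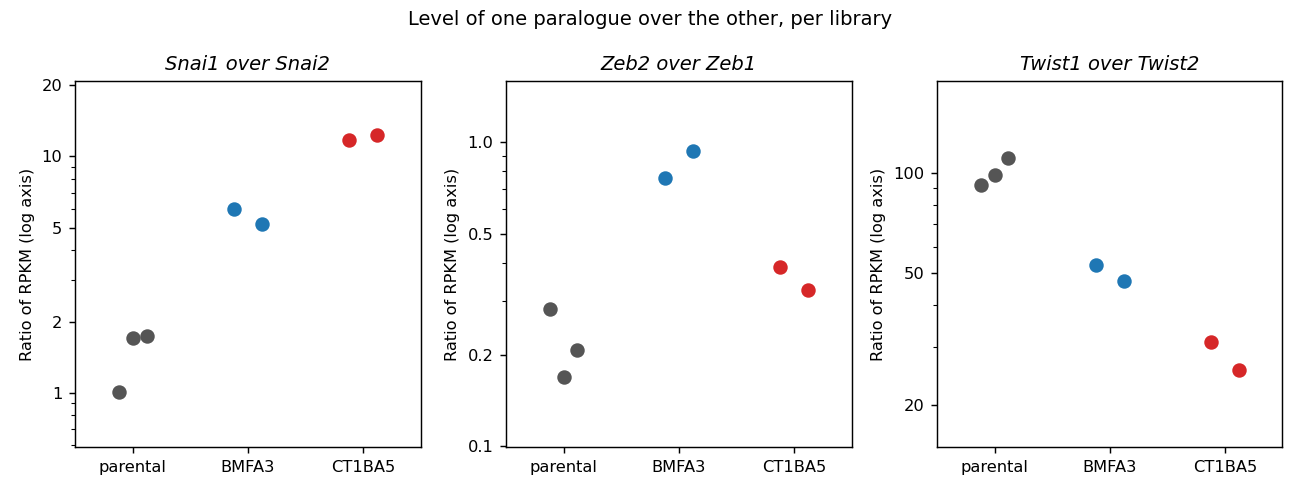
Ratio of levels per kilobase of exon (RPKM, vertical log axes) of Snai1 over Snai2, Zeb2 over Zeb1 and Twist1 over Twist2 in each library (points), by group. Snai1 over Snai2 climbs from 1.00 to 1.73 in parental to 11.7 to 12.3 in CT1BA5 libraries, Zeb2 over Zeb1 peaks in BMFA3 libraries at 0.759 to 0.932, and Twist1 over Twist2 is lower in both sorted groups.

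Prrx1, a homeobox factor of limb and fibroblast mesenchyme, rose to a similar level in both tumour types. It lies on chromosome 1 at 163245119 to 163313710 (reverse strand, ENSMUSG00000026586). Parental libraries held 34.0, 30.1 and 28.8 CPM, BMFA3 libraries 52.0 and 56.3 CPM and CT1BA5 libraries 52.9 and 45.2 CPM. Sorted libraries were all above parental ones and overlapped each other. The rise was 1.76-fold (95% interval 1.54 to 2.02, adjusted p = 3.14e-07) in BMFA3 and 1.60-fold (1.39 to 1.83, adjusted p = 2.9e-06) in CT1BA5 cells.

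Foxc2, a forkhead factor of mesoderm and lymphatic vessels, was near the limit of counting outside CT1BA5 cells. The gene is on chromosome 8 at 121116171 to 121118895 (forward strand, ENSMUSG00000046714). It had 6, 6 and 5 counts (0.552, 0.437 and 0.245 CPM) in parental, 10 and 9 counts (0.609 and 0.596 CPM) in BMFA3 and 47 and 49 counts (3.04 and 3.82 CPM) in CT1BA5 libraries. Both CT1BA5 libraries stood far above all others. The fold in CT1BA5 cells was 8.73 over parental (95% interval 4.74 to 16.1, adjusted p = 1.7e-06) and 5.60 over BMFA3 cells (2.97 to 10.6, adjusted p = 9.26e-05), and a change in BMFA3 cells was not detectable at this depth (log2 0.64, interval -0.51 to 1.79, adjusted p = 0.331). Endothelial cells can express Foxc2, and their markers did not move one way. Egfl7 rose with Foxc2, at 2.11, 4.03 and 8.26 CPM (CT1BA5 over parental 3.65-fold, adjusted p = 1.91e-05, edgeR), though it overlaps Agpat2 on the opposite strand. Kdr fell, at 99.3, 23.4 and 14.6 CPM, as did Esam, at 76.6, 42.8 and 31.8 CPM. Cdh5 reached no more than 2 counts in any library, and Tie1 and Cldn5 had 0 counts in every library; the part of such cells in the Foxc2 result was not tested.

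Tcf4, which encodes the E protein E2-2 and is distinct from the Wnt factor of the same nickname, moved little. On chromosome 18 at 69343356 to 69689079 (forward strand, ENSMUSG00000053477), it stood at 37.0, 35.4 and 38.7 CPM in parental, 46.4 and 48.1 in BMFA3 and 41.8 and 36.6 in CT1BA5 libraries. BMFA3 libraries were above the rest, and CT1BA5 libraries overlapped the parental ones. Tcf4 was 1.27-fold higher (95% interval 1.12 to 1.44, adjusted p = 0.00178) in BMFA3 cells, while its log2 fold change in CT1BA5 cells was 0.08 (interval -0.10 to 0.27, adjusted p = 0.42). Its call against parental cells over both tumour types (log2 0.21, adjusted p = 0.0144) was lost without parental replicate 2 (adjusted p = 0.0774), without BMFA3 replicate 2 (0.0555) and with scaling by library size alone (0.502); over leaving out each library the adjusted p was 0.00258 to 0.0774.

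Klf4 had the larger fall of the 2 factors that fell. It is on chromosome 4 at 55527143 to 55532466 (reverse strand, ENSMUSG00000003032). Its values were 207, 205 and 205 CPM in parental, 77.6 and 74.8 in BMFA3 and 23.6 and 22.3 in CT1BA5 libraries. The groups were far apart, each tightly clustered, in the order parental, BMFA3, CT1BA5. Klf4 was 2.70-fold lower in BMFA3 (log2 -1.43 ± 0.069 SE, adjusted p = 8.83e-13) and 8.95-fold lower in CT1BA5 cells (log2 -3.16 ± 0.080, adjusted p = 1.34e-17).

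**Figure D3:**
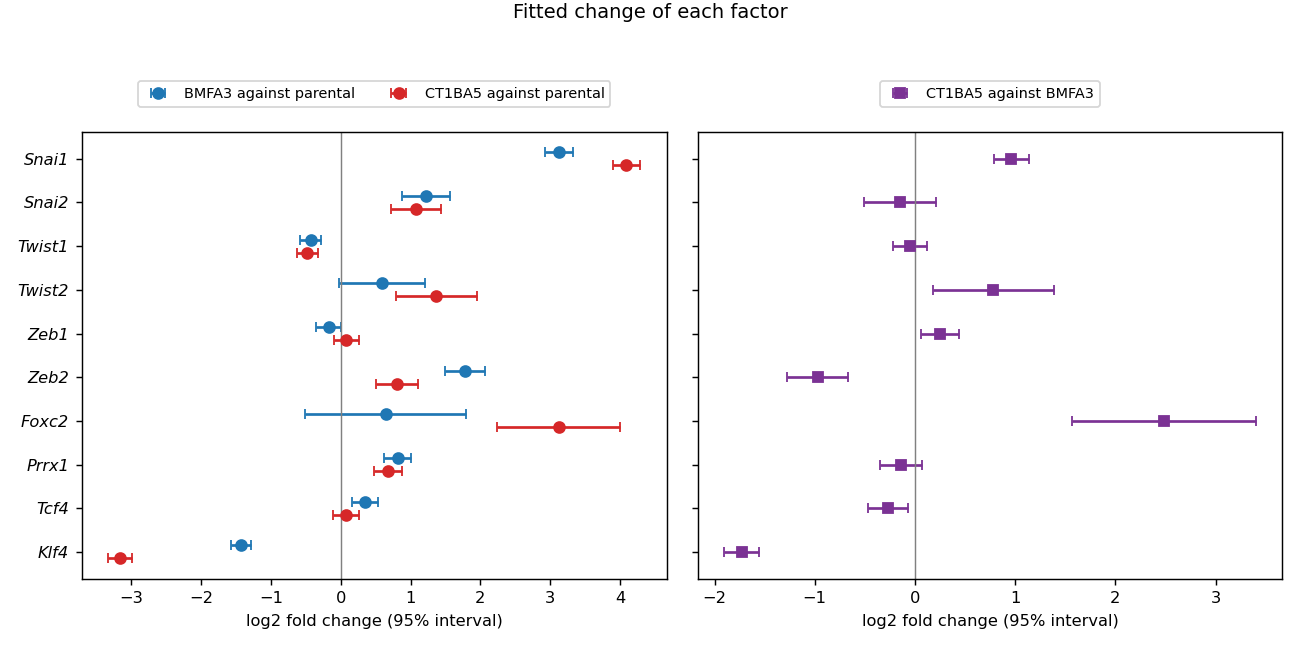
Fitted log2 fold changes (horizontal axes) with 95% intervals of the 10 factors in BMFA3 and CT1BA5 cells against parental cells (left) and in CT1BA5 against BMFA3 cells (right). Snai1 and Klf4 lie farthest out on opposite sides in CT1BA5 cells at 4.09 and -3.16, and on the right Foxc2 and Snai1 are above 0 while Klf4 and Zeb2 are below it.

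Compared per length, as RPKM (CPM divided by the exon length in kilobases), the 10 factors summed to similar levels in the groups: 134.9 to 138 in the parental libraries, 120 to 124 with BMFA3 and 135 to 139 with CT1BA5. Their make-up differed. In parental cells Klf4 (67.4 RPKM) and Twist1 (51.0) came first, far ahead of Zeb1 (5.25), Snai1 (4.06), Snai2 (2.84) and Prrx1 (2.80), with Tcf4, Zeb2, Twist2 and Foxc2 at 1.35, 1.16, 0.509 and 0.151 RPKM; Snai2 and Prrx1, and Tcf4 and Zeb2, did not differ beyond their spread. In BMFA3 cells Twist1 (38.0) and Snai1 (36.2) overlapped, followed by Klf4 (25.0), Snai2 (6.53), Prrx1 (4.89), Zeb1 (4.64), Zeb2 (3.89), Tcf4 (1.73), Twist2 (0.761) and Foxc2 (0.221); Prrx1 and Zeb1 overlapped too. In CT1BA5 cells Snai1 (70.6) came first and was clear of Twist1 (36.7). Klf4 (7.52) came next, then Snai2 (5.89) and Zeb1 (5.53), which overlapped, Prrx1 (4.43) and Zeb2 (1.98), and last Tcf4, Twist2 and Foxc2 at 1.43, 1.32 and 1.26 RPKM with overlap among them.

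As a share of the summed RPKM, Klf4 held 48.7 to 50.4% of the parental, 20.5% of the BMFA3 and 5.43 to 5.58% of the CT1BA5 libraries. Snai1 held 2.57 to 3.20%, 29.6 to 29.9% and 51.6 to 51.7% in that order. Twist1 held 35.6 to 38.6%, 30.4 to 31.8% and 26.4 to 27.4%. With the length of the principal transcript in place of all exons, Snai1 held 2.34 to 2.95%, 25.8 to 25.9% and 46.1 to 46.6%, so the order of these groups was kept. The middle places were not, as Prrx1, Zeb1, Zeb2 and Tcf4 have long exons that not every transcript uses: by that length parental Prrx1 stood at 6.25 RPKM, above Snai1 at 4.06.

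**Figure D4:**
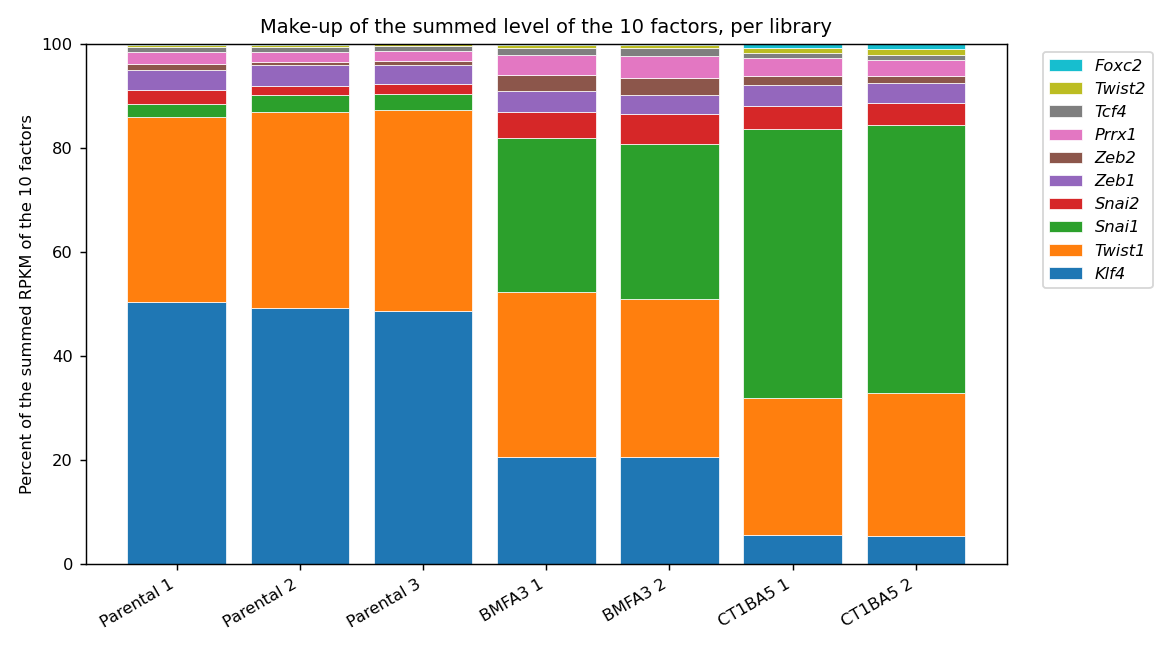
Share of each factor (colours) in the summed RPKM of the 10 factors (vertical axis, percent) in each of the 7 libraries. Klf4 and Twist1 make up most of the parental bars, and Snai1 holds 29.6 to 29.9% of the BMFA3 bars and 51.6 to 51.7% of the CT1BA5 bars.

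The tumour types were then compared directly. Of the 10 factors, 4 were higher in CT1BA5 than in BMFA3 cells (Snai1, Twist2, Zeb1 and Foxc2), 3 were lower (Zeb2, Tcf4 and Klf4) and 3 did not pass the test (Snai2, Twist1 and Prrx1), where 50.8% of all tested genes were called (25.5% higher and 25.3% lower). The groups did not overlap for 4 factors in each direction, beside 74.5% of all tested genes in either. Snai1 was 1.95-fold higher (95% interval 1.73 to 2.20, adjusted p = 1.05e-08), Zeb2 1.96-fold lower (adjusted p = 1.5e-05) and Klf4 3.32-fold lower (adjusted p = 1.51e-12). The smaller differences depended on single libraries or scaling. The count of higher factors was 2 without BMFA3 replicate 2, with DESeq2 or with library size alone, the calls of Zeb1 (log2 0.25, adjusted p = 0.0284) and Twist2 (log2 0.78, adjusted p = 0.0295) being lost. Over leaving out single libraries, Zeb1 was lost also without CT1BA5 replicate 1 (adjusted p = 0.133), and Twist2 also without BMFA3 replicate 1 (0.121) and CT1BA5 replicate 2 (0.176). Prrx1 passed the test without CT1BA5 replicate 1 (log2 -0.26, adjusted p = 0.0496). That of Tcf4 (log2 -0.27, adjusted p = 0.0248) was lost without either BMFA3 library (adjusted p = 0.0664 and 0.129), without CT1BA5 replicate 2 (0.176) and with DESeq2 (0.0742).

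Against parental cells, 5 of the 10 were called higher and 2 lower in BMFA3 (59.0% of all tested genes called, 29.2% higher and 29.9% lower), and 6 higher and 2 lower in CT1BA5 cells (70.7% called, 35.5% higher and 35.1% lower). Libraries did not overlap with parental ones for 7 factors above and 2 below in BMFA3 cells (73.8% of all tested genes in either direction) and for 6 above and 2 below in CT1BA5 cells (78.4%). These comparisons share the parental libraries. Zeb1 and Tcf4 lay so near 0 in CT1BA5 cells that scaling by library size alone put them below it (log2 -0.15 each), a setting that moved the median of all genes by -0.234; relative to that median they were above 0.

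The genes whose profile was most like that of a factor over the 7 libraries were sought by Pearson's r of log2 CPM, among the 9092 genes whose mean reached 10 CPM. The points share 3 groups, so this is a description. Snai1 was nearest to Creb3l1 (r = 0.9997), a transcription factor gene of collagen-secreting cells that stood at 76.8, 217 and 287.5 CPM, and to Igfbp7 and Fstl1, which encode secreted glycoproteins. Klf4 was nearest to Kitl, the stem cell factor gene, at 81.9, 27.7 and 6.51 CPM, and next to the mesothelial gene Upk3b at 2980, 339 and 20.4 CPM. As many as 1649 genes for Snai1 and 1681 for Klf4 had r over 0.9, against 10 for Zeb1, 245 for Tcf4 and 315 for Zeb2. The nearest to those 3 were Vps4a (r = 0.9523), Clasp1 (0.9965) and Hbp1 (0.9921). Snai2 was nearest to Gstz1 (0.9939), Prrx1 to Desi2 (0.9948), Twist1 to Trim21 (0.9964), Twist2 to Cnn3 (0.9994) and Foxc2 to Tmem183a (0.9979).

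Other factors assigned to EMT were followed from a list of 24, of which 16 were tested, and 11 rose, 2 fell and 3 missed the threshold in tumour-sorted against parental cells (median log2 fold change 0.72, and the same with Snai3 set at its bound). Over all tested genes 69.6% were called there (34.8% higher and 34.8% lower), which also stands beside the counts of the lists below. Hmga2, a chromatin factor that acts upstream of Snai1 and Twist1, stood at 213, 996 and 638 CPM, and Sox4, an inducer of EMT regulators, at 60.1, 162 and 208 CPM. Foxf2, a forkhead factor of mesenchyme, rose from 2.60 to 7.94 and 21.4 CPM, and Zfp281, a zinc finger factor linked to Snai1, from 61.3 to 146.5 and 83.9 CPM. The remaining SNAI gene, Snai3, named after its values were seen, was 0.749 CPM in parental cells, had 0 counts in BMFA3 cells and stood at 0.117 CPM in CT1BA5 cells. Scrt2 and Gsc had 0 counts in every library.

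Of the 6 genes for E proteins and ID proteins, 1 rose and 4 fell, and 1 missed the threshold (median -0.72). Tcf3, the E protein gene of E12 and E47, rose from 58.7 to 86.8 and 103 CPM. Tcf12, the E protein gene of HEB, named after its values were seen, stood at 89.3, 89.0 and 77.5 CPM (log2 -0.11, adjusted p = 0.169). The ID genes, which encode inhibitors that bind E proteins and have no DNA-binding part, fell: Id1 stood at 117, 97.7 and 62.7 CPM, Id3 at 180.0, 143 and 68.6 CPM and Id4 at 4.70, 0.697 and 0.538 CPM. Id2, named after its values were seen, was 13.6, 14.5 and 2.66 CPM and thus lower in CT1BA5 than in BMFA3 cells (CT1BA5 over BMFA3 log2 -2.45, adjusted p = 3.83e-09).

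Among 13 factors that maintain epithelia and oppose EMT, 5 were tested, of which 4 fell and 1 did not pass the test (median -1.31). Foxa2, an endodermal pioneer factor, stood at 55.0, 45.1 and 8.58 CPM, Grhl3, a grainyhead factor of surface epithelia, at 9.31, 1.498 and 1.64 CPM, Klf5 at 9.78, 4.60 and 3.46 CPM and Grhl1 at 2.25, 1.009 and 0.998 CPM. The factor that did not pass was Esrp2, named after its values were seen, at 13.1, 13.2 and 13.9 CPM (log2 0.04, adjusted p = 0.796, edgeR). Grhl2, Ovol2, Esrp1, Ehf and Elf5, which mark committed epithelia, had 0 counts in every library, cultured cells included.

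Of 22 genes for corepressors and for enzymes that stabilise or degrade SNAI proteins, all tested, 10 rose and 6 fell, while 6 missed the threshold. Their median was 0.11, smaller in size than the median of -0.149 that all genes have under scaling by library size alone. Over all tested genes 69.6% were called in tumour-sorted against parental cells, so these counts on their own say little. Pak1, which encodes a kinase that phosphorylates SNAI1, rose from 14.9 to 41.3 and 73.5 CPM, and Kdm1a, the histone demethylase gene recruited by SNAI1, from 69.1 to 116 and 154 CPM. Ctbp2, a corepressor gene of ZEB proteins, rose from 50.9 to 80.3 and 113 CPM; it overlaps Fgfr2 on the same strand over 314 exonic bases. Loxl3, a lysyl oxidase gene linked to SNAI1 stability, fell from 207 to 75.4 and 112 CPM and overlaps Htra2, so its value is uncertain to that extent.

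Epithelial genes that EMT factors are known to repress were lower in tumour-sorted cells. Of 28 listed, 22 were tested, and 18 fell, 1 rose and 3 did not pass the test (median -1.36, beside 0.006 over all tested genes). Cdh1, the E-cadherin gene, stood at 11.6 ± 2.85 (SD, n = 3), 7.08 ± 1.02 (n = 2) and 0.466 ± 0.439 CPM (n = 2), and fell by 3.83 on the log2 scale from BMFA3 to CT1BA5 cells (adjusted p = 2.07e-07). Cldn1, a tight junction gene, stood at 74.5, 1.14 and 0.168 CPM and Krt19 at 989, 97.2 and 30.8 CPM. Krt7 stood at 59.5, 7.47 and 11.5 CPM and Krt8 at 273, 102 and 120 CPM, both slightly higher in CT1BA5 than in BMFA3 cells. The gene that rose in the mean of the sorted groups was Pkp2, a desmosome plakophilin gene named after its values were seen, which stood at 16.8, 15.3 and 35.9 CPM; Epcam had at most 5 counts in a library. Against parental cells 1 was higher and 16 lower in BMFA3 cells (29.2% of all tested genes called higher and 29.9% lower). In CT1BA5 cells 3 were higher and 16 lower (35.5% of all tested genes called higher and 35.1% lower). Jup, also named after its values were seen, stood at 219, 141 and 314 CPM. In CT1BA5 against BMFA3 cells 7 were higher and 13 lower (25.5% of all tested genes called higher and 25.3% lower).

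Promoter windows of the same length were matched in RefSeq for 20 of these 28 epithelial genes, and 16 of the 20 held CACCTG or its reverse complement CAGGTG, beside 22.6% of 27025 genes with a window and 1 of 12 mesenchymal genes. The list was drawn up as genes these factors are known to repress, so the share is not independent of it. Among tested epithelial genes it was 8 of 11 that fell and 2 of 3 that did not. Cldn1, with the largest fall of the list, had no such letters in its window. Of the 6 factors with a window (Snai1, Twist1, Twist2, Zeb2, Prrx1 and Klf4), 1 held them, namely Snai1.

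The windows of Krt7 (chr15:101412153-101412452, forward strand), Krt8 (chr15:102004293-102004592, reverse strand), Krt18 (chr15:102027966-102028265, forward strand) and Lsr (chr7:30973420-30973719, reverse strand), all GRCm38.p6, are shown as examples of epithelial genes that fell and hold the letters; Krt18 and Lsr were chosen after their values were seen. Krt18 stood at 229, 126 and 72.7 CPM and Lsr, a tricellular junction gene, at 34.8, 12.9 and 5.93 CPM. Capitals mark CACCTG or CAGGTG, which occur at 1, 1, 1 and 4 places in that order, the first 3 at bases -44, -111 and -214 from the start site.
Krt7: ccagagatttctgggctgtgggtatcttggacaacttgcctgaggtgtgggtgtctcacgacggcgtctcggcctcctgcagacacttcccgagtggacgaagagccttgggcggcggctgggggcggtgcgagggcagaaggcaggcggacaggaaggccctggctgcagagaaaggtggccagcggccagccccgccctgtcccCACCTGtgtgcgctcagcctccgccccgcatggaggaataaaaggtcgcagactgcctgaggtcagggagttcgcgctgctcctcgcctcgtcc
Krt8: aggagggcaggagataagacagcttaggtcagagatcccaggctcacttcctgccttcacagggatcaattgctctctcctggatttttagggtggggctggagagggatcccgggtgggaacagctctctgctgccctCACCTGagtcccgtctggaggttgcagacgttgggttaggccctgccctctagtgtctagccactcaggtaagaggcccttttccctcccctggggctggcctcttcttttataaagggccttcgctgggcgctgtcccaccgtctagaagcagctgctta
Krt18: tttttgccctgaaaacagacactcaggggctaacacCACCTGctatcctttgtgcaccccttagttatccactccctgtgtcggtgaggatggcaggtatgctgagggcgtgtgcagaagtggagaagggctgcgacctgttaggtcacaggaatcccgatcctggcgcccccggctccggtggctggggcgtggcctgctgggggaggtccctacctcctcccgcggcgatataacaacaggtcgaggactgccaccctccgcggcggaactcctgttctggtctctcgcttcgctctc
Lsr: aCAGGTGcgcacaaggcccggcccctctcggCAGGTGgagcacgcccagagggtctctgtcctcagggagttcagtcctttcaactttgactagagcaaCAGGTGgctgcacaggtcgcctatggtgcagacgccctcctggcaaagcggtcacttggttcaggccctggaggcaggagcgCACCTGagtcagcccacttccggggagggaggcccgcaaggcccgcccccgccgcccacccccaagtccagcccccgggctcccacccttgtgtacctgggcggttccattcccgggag

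Mesenchymal genes of the EMT programme were mixed. All 24 listed were tested, and 15 rose and 5 fell, while 4 missed the threshold (median 0.81, and the same with Mmp9, which had 0 parental counts, set at its bound). Itga5, the fibronectin receptor subunit gene, stood at 148.5, 645 and 1619 CPM, Tnc, a matrix glycoprotein gene, at 27.0, 106 and 1368 CPM, Lox, a collagen cross-linking enzyme gene, at 770.1, 2879 and 7185 CPM and Acta2, the smooth muscle actin gene, at 154, 524 and 1713 CPM. Cdh2 and Vim, textbook mesenchymal genes, were lower over both tumour types: Cdh2, the N-cadherin gene, stood at 476 ± 5.11 (SD, n = 3), 415 ± 6.53 (n = 2) and 142 ± 5.17 CPM (n = 2) and fell by 0.97 on the log2 scale in the mean (adjusted p = 1.24e-12), and Vim, the vimentin gene, stood at 3265, 1736 and 2951 CPM and fell by 0.53 (adjusted p = 2.99e-09). Cdh1 and Cdh2 were thus both lowest in CT1BA5 cells, where Snai1 was highest. The pericyte and stellate cell markers Pdgfrb (19.8, 80.1 and 136 CPM) and Des (7.17, 18.3 and 22.3 CPM) rose beside the mesenchymal genes. Rgs5 (0.138, 1.52 and 1.54 CPM), Ndufa4l2 (2.38, 16.4 and 4.78 CPM) and Notch3 (53.6, 59.8 and 66.7 CPM) rose too. Mcam fell in the mean, at 34.4, 16.0 and 52.8 CPM, and Cspg4 (0.0649, 0.0305 and 5.06 CPM) did not pass the test. Abcc9 had 0 counts in every library, and Kcnj8 and Higd1b had no more than 1 count in any. The part of such cells was not tested.

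**Figure D5:**
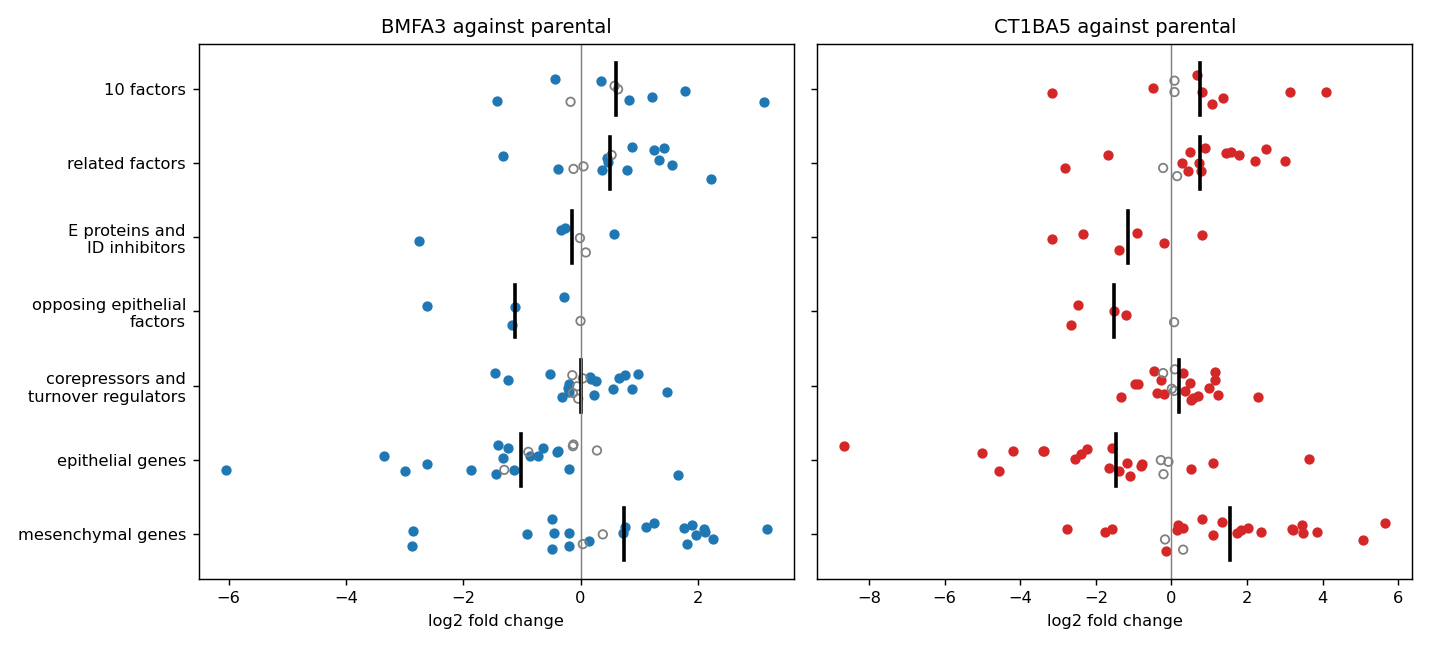
Log2 fold changes (horizontal axes) of tested genes in the 10 factors and 6 lists of the programme, in BMFA3 (left) and CT1BA5 (right) against parental cells; filled points passed an adjusted p of 0.05, open points did not, and black bars are list medians. Epithelial genes and opposing factors lie mostly below 0 and mesenchymal genes spread to both sides; genes with 0 counts in a group (Mmp9, and Snai3 for BMFA3) are not drawn.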

How the data were processed

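RNA was measured in 7 libraries by sequencing. The deposited table holds raw counts per Ensembl mouse gene, whole numbers with unequal column totals, per the file headers. CASAVA, DESeq2 1.24.0 and mm10 are named per the submitters' processing notes, with no role given; the aligner, counter, annotation release and strand setting are each not given in the sources used here. Of 54532 identifiers, 54495 matched GENCODE M21 (GRCm38).

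Genes were kept with filterByExpr by group (minimum count 10), leaving 13784, scaled by TMM and fitted in edgeR 4.0.16 (R 4.3.3) with 3 groups; quasi-likelihood F tests were adjusted by Benjamini-Hochberg over all tested genes, at 0.05. The spread was estimated over all 7 libraries (common biological coefficient of variation 0.083). SE is the absolute log2 fold change over the root of F. CPM use TMM-scaled library sizes, and RPKM divide them by the union of exons. Floors and intervals of counts cover counting error only.

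The members and lists were chosen with earlier results of these data known. Named genes are the 10 factors, the 4 genes of each list with the smallest p in tumour-sorted against parental cells, Cdh1, Cdh2, Cldn1, Vim and Acta2, and the 3 nearest profiles per factor; others are said to be chosen after their values were seen, or stand as markers, and 1 gene that the rule names is not reported here. Alternatives were RLE scaling, library size alone, no count filter, a filter of 1 CPM in 2 libraries, DESeq2 1.42.0, a replicate block and leaving out each library.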

Additional observations from a re-analysis of the deposited data

Results flagged for a closer look

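The change from parental cells differed between the tumour types, by the test of CT1BA5 against BMFA3 cells itself (edgeR quasi-likelihood test, Benjamini-Hochberg adjusted p under 0.05), for 7 of the 10 factors, beside 50.8% of all tested genes. The log2 difference, CT1BA5 over BMFA3, was 2.485 for Foxc2, 0.962 for Snai1, 0.782 for Twist2, 0.251 for Zeb1, -0.266 for Tcf4, -0.969 for Zeb2 and -1.73 for Klf4. The calls of Twist2, Zeb1 and Tcf4 were lost with DESeq2 (adjusted p = 0.129, 0.074 and 0.0742) and on leaving out any of several single libraries. Zeb2 went the other way from Snai1: it was higher in both CT1BA5 libraries than in all parental ones, and higher still in both BMFA3 libraries. Groups of 2 and 3 libraries were not examined for outlying samples.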

How the results depend on the processing

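Of 520 fold changes of single factors recomputed under the alternatives, 493 kept their direction and their side of the threshold, among them all of Snai1, Snai2, Zeb2, Foxc2 and Klf4 (52 each); counts over all genes stayed within 1.5 times in all 104 cases, and counts of factors in 100 of 104. In CT1BA5 against BMFA3 cells, 4 factors were higher and 3 lower, and this became 2 higher and 5 lower with library size alone and 2 higher with DESeq2, and 2 to 4 higher over leaving out each library. Library size alone turned Tcf4 (log2 -0.152) and Zeb1 (-0.154) in CT1BA5 against parental cells. It put the median of all genes at -0.149, -0.071, -0.234 and -0.163 in tumour-sorted, BMFA3 and CT1BA5 against parental and CT1BA5 against BMFA3 cells. In the main fit these medians were 0.006, 0.005, 0 and -0.006. The share of higher calls went from 50, 49.4, 50.3 and 50.2% to 37.6, 42.4, 35.8 and 33.3%. Leaving out each library gave -0.019 to 0.172 for Tcf4 in CT1BA5 against parental, -0.107 to 0.007 for Zeb1 in tumour-sorted against parental and -0.113 to 0.01 for Twist1 in CT1BA5 against BMFA3 cells; the cause was not tested. A group left with 1 library was assumed to vary like the others.

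Deviations from the group mean had correlations of -0.101 to 0.0769 between libraries with the same number in the labels. In a group of 2 libraries the deviations mirror each other, so these values cannot decide whether the numbers pair libraries. With the replicate number as a block, 7 factors were higher and 2 lower in tumour-sorted against parental cells, as without it, and no call of a factor changed; parental replicate 3 has no partner in its block. Depth limits Foxc2 and Twist2, at 5 to 59 counts in a library.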
